A study of Mus musculus with 8 samples.

Results

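Leukaemia cells labelled as lacking both Ezh1 and Ezh2 were compared with leukaemia cells labelled as lacking Ezh2 alone. The comparison uses the 4 of 8 libraries that were made after tamoxifen, chosen by the genotype and treatment in their labels. All come from the bone marrow of C57BL/6 mice with c-kit+ acute myeloid leukaemia and were taken 7 days after treatment. Tamoxifen in corn oil (10 mg/kg/day, 5 doses by intraperitoneal injection) was used to delete a floxed Ezh2. The 2 libraries called Ezh1-present here carry the genotype Ezh1+/+ Ezh2-/-, and the 2 called Ezh1-null carry Ezh1-/- Ezh2-/-, so both groups share the tamoxifen and the labelled loss of Ezh2. The other 4 libraries followed oil alone, with 2 of genotype Ezh1+/+ Ezh2+/+ and 2 of genotype Ezh1-/- Ezh2+/+ (the series' design text calls the Ezh2 of both oil groups flox/flox). The sample titles carry the word Moz, the name of a histone acetyltransferase gene. The labels give neither the Cre driver nor the age of the animals, and they do not say whether replicates are separate animals or separate leukaemias. All p-values therefore measure the spread between these libraries, and the Ezh1 genotype and the leukaemia of origin cannot be told apart.

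Polycomb repressive complex 2 (PRC2) places methyl groups on lysine 27 of histone H3 and keeps genes silent. Its catalytic subunit is either Ezh2, which is abundant in dividing cells, or Ezh1, which is found also in resting cells. Eed and Suz12 are needed by both forms, and Polycomb repressive complex 1 (PRC1) reads the mark through its Cbx subunits. Known PRC2 targets in blood cells include the cell cycle inhibitor gene Cdkn2a and many transcription factor genes of the embryo. When Ezh2 is lost, Ezh1 can still place part of the mark, so this comparison bears on the genes that differ when the second enzyme is missing as well.

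Each value below is the log2 of a normalized read number in 1 library, set against the median that the gene had across all 8. The deposited values carry no absolute level, so levels are not compared between genes. A difference is Ezh1-null minus Ezh1-present on this scale, written with its standard error (±) from a limma fit, with n = 2 in each group. Calls needed a p under 0.05 after Benjamini-Hochberg adjustment. Where a library had no more than a normalized read number of 1, its value is set to that floor. Replicates differed by a median SD of 0.142 in the Ezh1-present and 0.115 in the Ezh1-null tamoxifen group. In bulk samples of this kind, fewer cells of a type and less RNA per cell cannot be told apart.

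Of 18051 genes tested, 2204 (12.2%) were called, 1222 (6.77%) higher and 982 (5.44%) lower in Ezh1-null cells. The median absolute log2 difference of the called genes was 1.04, and 637 higher and 516 lower genes differed by at least 1. The median over all genes was -0.0023. None of the called genes overlapped between the groups, where 62.5% of all tested genes also did not overlap. Of the 2204 calls, 151 had a tamoxifen group wholly at the floor, where libraries show no spread. The calls lean on the spread shared with the oil libraries. With only the 4 tamoxifen libraries in the fit, 46 genes were called and 4898 had an unadjusted p under 0.05. Without Ezh1-present tamoxifen replicate 1 or 2, 469 and 596 genes were called, and without Ezh1-null tamoxifen replicate 1 or 2, 258 and 345. Without 1 Ezh1-present oil library the count was 1102 in either case, and without Ezh1-null oil replicate 1 or 2 it was 1328 and 1332. Called in each of these 8 fits were 140 genes, 69 higher and 71 lower. Of 189 genes examined singly 155 were called, and 14 of these kept the call in all 8 fits, among them Ezh1, Vpreb1, Atp6v0d2, Tnfsf18, Pdcd1, Meis1, Oas3, Fos, Fosb, BC100530, Ly6c2, Gm5483 and BC117090. Of these, Pdcd1 and BC117090 were at the floor in all 4 libraries of 1 Ezh1 genotype, so the filter kept them only because they were high in the other, and their calls add no support. Others of the 140 also had a tamoxifen group wholly at the floor, with no spread there to test against.

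The targeted genes were read first. With Ezh1 present, Ezh1 itself (gene 14055, mm10 chromosome 11, 101191115 to 101226450) had values of 1.55 and 1.63, and in the Ezh1-null libraries it had -1.61 and -1.55. It was 8.99-fold lower in the Ezh1-null libraries (log2 difference -3.17 ± 0.10, adjusted p = 0.000793) and was called under all 17 alternative settings. Reads of Ezh1 remained above the floor in every library. The values are summed over a gene and the labels do not name the deleted exons. For Ezh2 (gene 14056, chromosome 6, 47530274 to 47595338) the values were 0.09 and 0.03 with Ezh1 and -0.53 and -0.56 without it, beside 0.25 and 0.23 (Ezh1-present) and -0.12 and -0.03 (Ezh1-null) in oil. The Ezh1-present tamoxifen libraries thus lay above both Ezh1-null oil libraries, so these values do not show the deletion of Ezh2, which is taken from the labels. Although both groups are labelled Ezh2-/-, Ezh2 reads were lower in Ezh1-null cells by a log2 difference of -0.60 ± 0.08 (adjusted p = 0.02). Without single libraries the adjusted p for Ezh2 reached 0.0881.

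Some other PRC2 subunits were lower. Beside Ezh1 and Ezh2, which the genotypes target, 12 PRC2 genes were tested, of which 3 fell and none rose (5.44% of all genes fell). Suz12, the scaffold subunit, lay at 0.25 and 0.32 with Ezh1 and at -0.59 and -0.50 without it (-0.84 ± 0.10, adjusted p = 0.0148). Aebp2, an accessory subunit, fell by 0.66 ± 0.08 (adjusted p = 0.0163), and the histone-binding subunit Rbbp7 fell by 0.51 ± 0.09 (adjusted p = 0.0315). The groups did not overlap for any of these genes, which holds for every called gene and for 62.5% of all tested genes. Eed differed by -0.26 ± 0.11 (adjusted p = 0.162), Rbbp4 by -0.37 ± 0.10 (0.0692) and the accessory subunit Jarid2 by 0.35 ± 0.15 (0.187), and none of the 3 passed. Mtf2, Phf19, Phf1, Lcor, Lcorl and Epop (listed as E130012A19Rik), which also attach to the complex, lay between -0.15 and 0.48 and did not pass. In oil the differences were much alike, at -0.81 for Suz12 and -0.57 for Aebp2. Without any 1 of the 4 tamoxifen libraries, Ezh1 was the single PRC2 gene still called.

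Of 24 PRC1 genes tested, 3 rose and 1 fell (16.7% called, not far from the 12.2% of all genes). Bcorl1 rose by 0.81 ± 0.10 and its relative Bcor fell by 0.95 ± 0.11 (adjusted p = 0.0152 for both). Both encode corepressors that join variant PRC1. Pcgf5, a subunit of another variant complex, also rose (0.73 ± 0.12, adjusted p = 0.0263). The list had a median of 0.04. None of the 8 genes for H3K27 demethylases, Asxl proteins, Bap1 and Foxk proteins passed, and the largest difference among them was 0.30 ± 0.08 for Foxk1 (adjusted p = 0.0733). No PRC1 gene was called when Ezh1-null tamoxifen replicate 1 was left out.

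Among the inhibitors of cyclin-dependent kinases, Cdkn2a and Cdkn1c rose. Cdkn2a, source of the proteins Ink4a and Arf (gene 12578, chromosome 4, 89274473 to 89294619), had values of 1.40 and 0.97 with Ezh1 and of 3.10 and 3.29 without it. That is 4.02-fold higher without Ezh1 (log2 difference 2.01 ± 0.20, adjusted p = 0.0111). In oil the same gene lay between -1.44 and -0.97 in all 4 libraries, with a difference of -0.20, and the test of the change between the differences gave an adjusted p of 0.0663. Cdkn1c, the imprinted p57 gene, lay at -0.35 and -0.58 with Ezh1 and at 0.84 and 0.53 without it (1.15 ± 0.19, adjusted p = 0.0268), while its difference in oil was -0.68. Cdkn2b, which encodes Ink4b beside Cdkn2a, lay at 1.53 and 0.64 against 1.96 and 2.99 (1.39 ± 0.59, adjusted p = 0.178) and did not pass. Cdkn1a (0.05), Cdkn1b (-0.47), Cdkn2c (-0.05) and Cdkn2d (0.22) did not pass. Without Ezh1-null tamoxifen replicate 1 or 2 no gene of this list was called, and the adjusted p for Cdkn2a rose to 0.0580 at most.

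The start of Cdkn2a is printed below to show how dense in CpG it is, since PRC2 is known to bind CpG-rich sequence. The promoter of Stfa2, a myeloid gene described further on, stands beside it. Each line gives the 200 bases that precede the first RefSeq start in GRCm38.p6, both from the minus strand, with each CG in capitals. Cdkn2a lies at chr4:89294620-89294819 and Stfa2 at chr16:36408364-36408563.
Cdkn2a: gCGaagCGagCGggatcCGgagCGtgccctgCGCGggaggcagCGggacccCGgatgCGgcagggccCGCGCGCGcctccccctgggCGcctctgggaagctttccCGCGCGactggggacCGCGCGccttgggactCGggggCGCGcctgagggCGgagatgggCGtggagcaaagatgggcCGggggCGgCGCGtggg
Stfa2: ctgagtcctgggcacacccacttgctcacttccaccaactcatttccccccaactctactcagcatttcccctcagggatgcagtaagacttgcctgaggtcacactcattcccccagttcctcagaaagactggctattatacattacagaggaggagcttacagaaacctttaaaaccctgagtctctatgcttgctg
The Cdkn2a stretch holds 30 CG pairs and the Stfa2 stretch none. Over all genes, RefSeq windows of 300 bases (250 before and 50 after the start) were matched for 13744 of the 18051 tested. Windows of the 949 matched higher genes had a median of 17 CG pairs and those of the 739 lower genes 18, beside 18 for genes not called. Of the 54 developmental transcription factor genes described below, 32 had a window, with a median of 24.5 CG pairs. The 22 matched neutrophil granule genes had a median of 3.

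**Figure D1:**
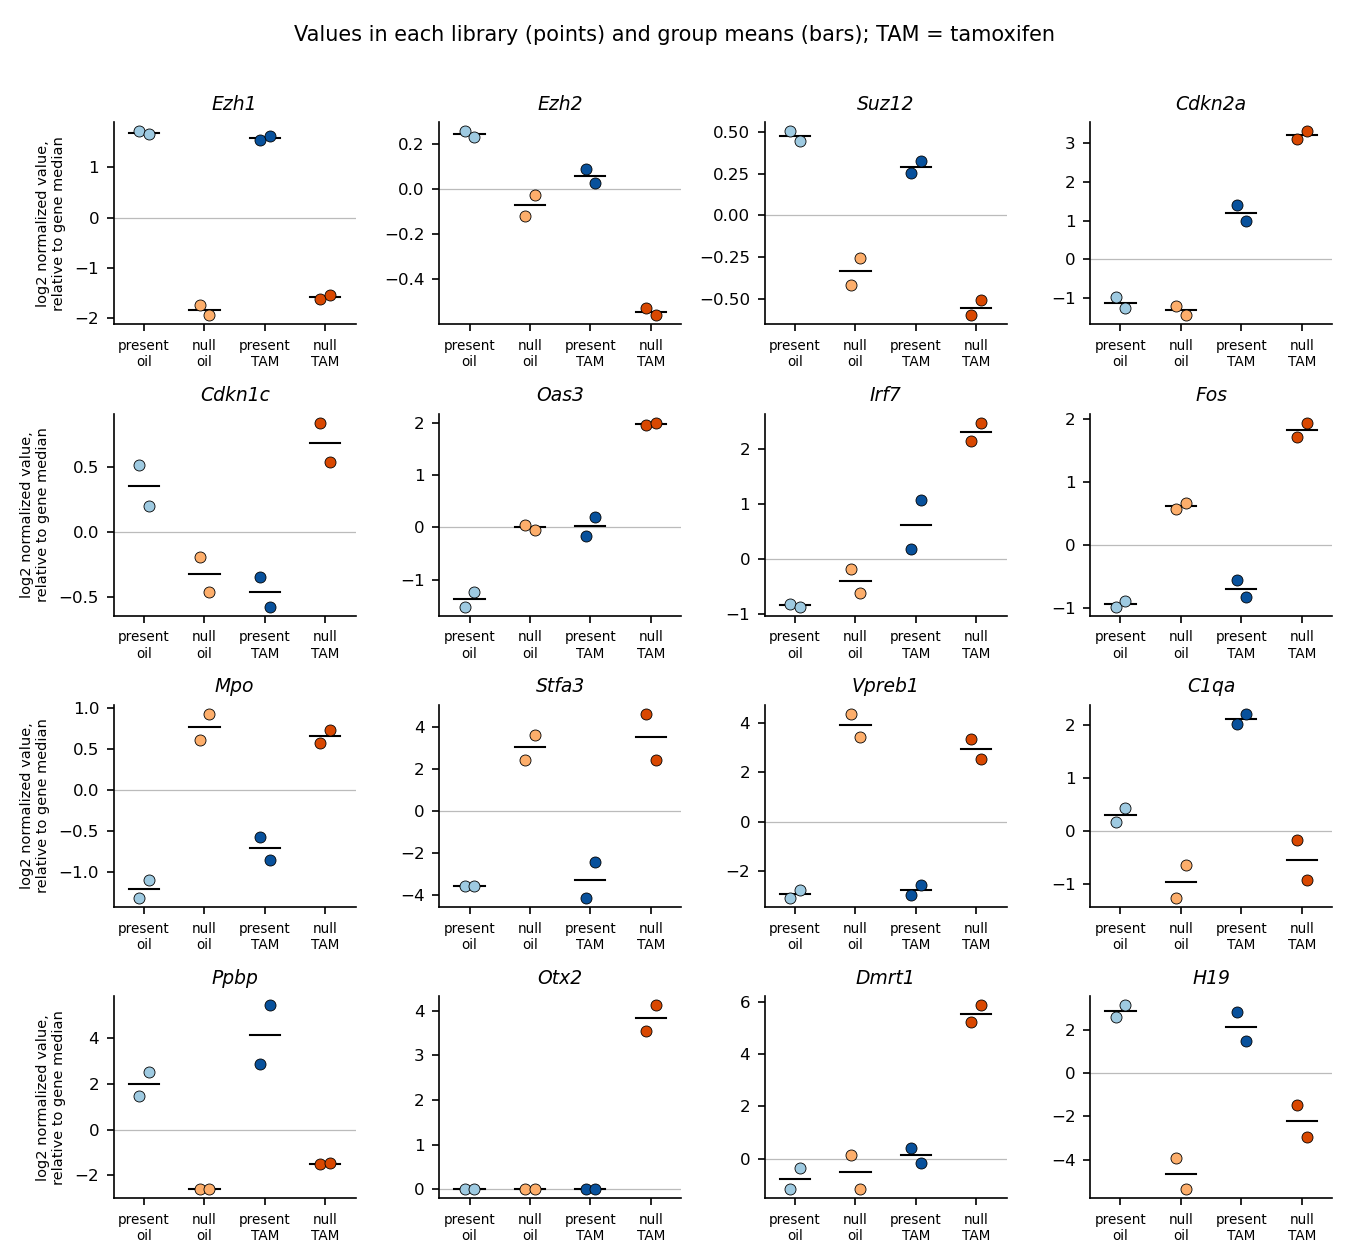
Values of 16 genes in each of the 8 libraries (points, log2 relative to the gene's median) with group means as bars. In Ezh1-null tamoxifen libraries Cdkn2a, Oas3, Otx2 and Dmrt1 lie above all other libraries, whereas Vpreb1, Stfa3 and Mpo are high in the Ezh1-null libraries of both treatments.

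Genes of DNA replication lay lower. All 27 members tested had a negative difference, from -0.65 to -0.11, and 7 fell past the threshold (25.9%, beside 5.44% of all genes). The median of the list was 0.08 and 0.05 in the Ezh1-present libraries and -0.28 and -0.29 in the Ezh1-null libraries. Pola1, a subunit of the polymerase that starts each strand, fell by 0.65 ± 0.10 (adjusted p = 0.0247). Mcm6 and Mcm3, parts of the replicative helicase, fell by 0.50 ± 0.08 and 0.49 ± 0.09 (adjusted p = 0.0262 and 0.0293). In oil the median difference of the list was -0.03 and no member was called. Of 26 mitosis genes, 3 fell (Bub1b, Kif11 and Top2a, by 0.53, 0.62 and 0.48) and none rose, which is 11.5% called beside 12.2% of all genes, with a median of -0.16. No G1 cyclin, partner kinase or Rb family gene passed. The largest difference among these was that of the cyclin gene Ccnd1, at 0.21 and 0.98 against 1.51 and 1.80 (1.06 ± 0.27, adjusted p = 0.0638). Without any 1 of the 4 tamoxifen libraries no replication or mitosis gene was called.

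Interferon-stimulated genes, which encode antiviral proteins and are switched on by a complex that holds Stat2 and Irf9, were higher in Ezh1-null cells. Of 34 tested, 18 rose (52.9%, beside 6.77% of all genes), none fell, and the groups did not overlap in 30, with the Ezh1-null libraries above (beside 30.7% of all genes). The median of the list was -0.05 and 0.19 in the Ezh1-present libraries and 1.09 and 1.11 in the Ezh1-null libraries. Oas3, a synthetase that activates the nuclease RNase L, lay at -0.17 and 0.21 against 1.96 and 2.01, a 3.89-fold difference (1.96 ± 0.17, adjusted p = 0.00783). Its relative Oas1a lay at -0.01 and 0.12 against 1.03 and 1.11 (1.01 ± 0.11, adjusted p = 0.0129). Irf9, a subunit of the interferon-activated transcription complex, lay at -0.21 and -0.06 against 0.80 and 0.86 (0.96 ± 0.10, adjusted p = 0.0113). The 2 groups were clear of each other in all 3 genes, which holds for every called gene and adds no support.

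Among other members, chosen after their values were seen, Irf7, a transcription factor that raises interferon production, rose by 1.69 ± 0.33. Isg15, a ubiquitin-like protein, rose by 1.68 ± 0.33, and Usp18, which removes it, by 1.98 ± 0.32. Stat2 (-0.03), Ifit3 (-0.01) and Mx1 (0.17) did not pass. In oil the Ezh1-null libraries were also higher on this list, with a median difference of 0.56 beside 1.16 after tamoxifen. There 10 of the 34 rose and 1 fell (beside 12.5% and 12.4% of all genes in oil). No member had a called difference between the 2 differences. Without Ezh1-null tamoxifen replicate 1 or 2, Oas3 alone was called on this list. Without Ezh1-present tamoxifen replicate 1, 4 were called, and 11 to 16 without the other libraries. The markers of several other blood cell types differed between the same groups, as given further on, and their part in this result was not tested.

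**Figure D2:**
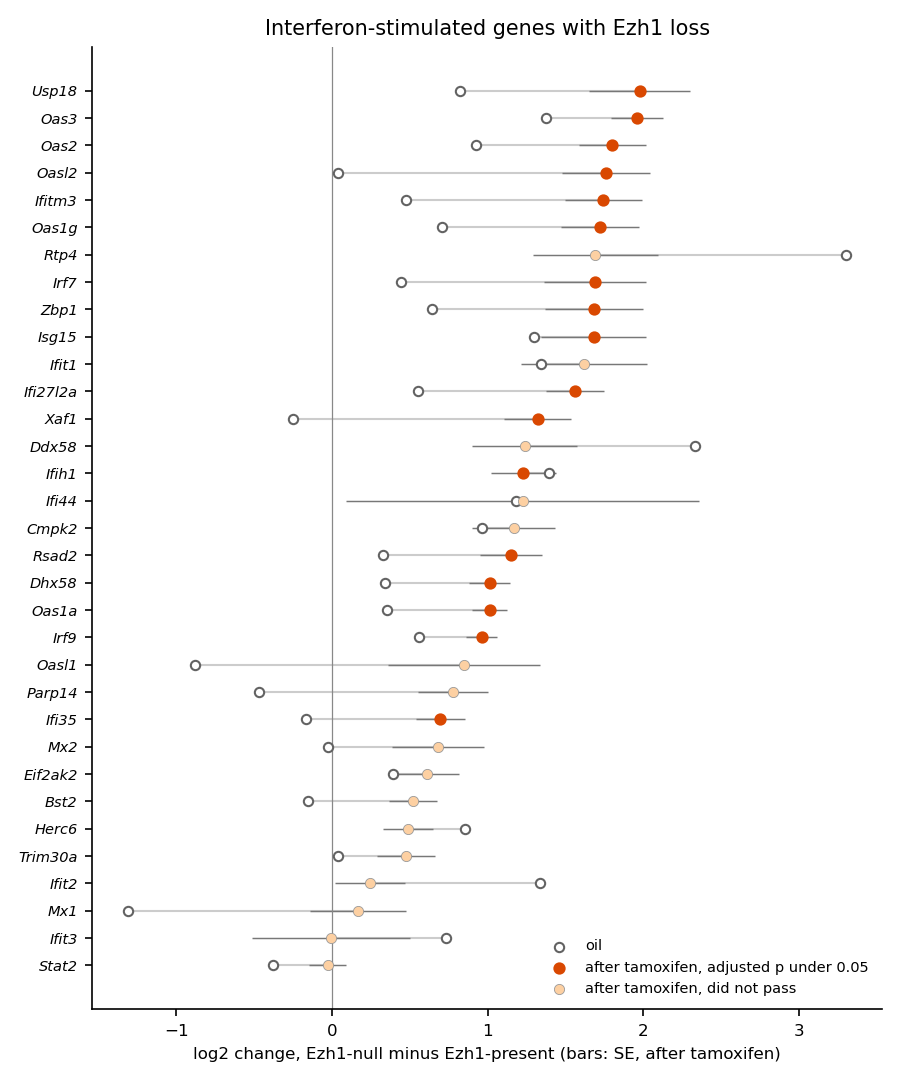
Log2 difference of 33 of the 34 interferon-stimulated genes between Ezh1-null and Ezh1-present libraries, after tamoxifen (filled points, with SE) and in oil (open points). After tamoxifen 31 of these 33 lie above 0, and the 17 that passed the test are drawn in dark orange.

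The promoters of 4 called members are printed to show the element that Irf9 and its relatives are known to bind. The element was searched as GAAA, any 2 bases and GAAA, on both strands. Each line gives 120 bases that end at the RefSeq start in GRCm38.p6, all from the minus strand, and capitals mark the matches (overlapping matches run together, and the match in Rsad2 lies on the other strand). The positions are chr5:120777660-120777779 for Oas3, chr5:120907526-120907645 for Oas1a, chr5:120887614-120887733 for Oas1g and chr12:26456453-26456572 for Rsad2.
Oas3: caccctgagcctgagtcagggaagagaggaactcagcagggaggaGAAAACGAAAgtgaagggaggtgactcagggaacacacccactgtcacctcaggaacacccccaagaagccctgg
Oas1a: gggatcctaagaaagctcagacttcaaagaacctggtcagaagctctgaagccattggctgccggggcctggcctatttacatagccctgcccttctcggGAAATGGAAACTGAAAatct
Oas1g: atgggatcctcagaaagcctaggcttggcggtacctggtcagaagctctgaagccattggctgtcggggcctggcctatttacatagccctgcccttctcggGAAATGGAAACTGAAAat
Rsad2: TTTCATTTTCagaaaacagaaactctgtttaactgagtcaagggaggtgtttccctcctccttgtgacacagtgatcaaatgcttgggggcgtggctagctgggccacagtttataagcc
Oas1a and Oas1g hold a doubled match just before the start, at -20 and -14 and at -18 and -12. Reads of such near copies may have been shared between them, so their separate values are uncertain. Oas1g rose by 1.72 ± 0.25 (adjusted p = 0.0213) and Rsad2, which encodes the antiviral enzyme viperin, by 1.15 ± 0.20 (adjusted p = 0.0287). Of the 24 interferon-stimulated genes with a RefSeq window of 300 bases, 14 held the element (58.3%), beside 3.78% of all 13744 windows. The share was 58.3% both among the 12 called and among the 12 not called. Of the 937 higher genes outside the list, 45 held it. A match describes these letters and does not show binding.

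Antigen presentation showed smaller differences. Of 22 MHC class I genes 4 rose (18.2%, beside 6.77% of all genes) and none fell. Tapbp, which loads peptides, lay at -0.58 and -0.32 against 0.37 and 0.32 (0.80 ± 0.11, adjusted p = 0.0197). H2-K1 and H2-D1, which encode class I heavy chains, rose by 0.89 ± 0.17 and 0.72 ± 0.13 (adjusted p = 0.0332 and 0.0339), and near copies may share their reads. Of 17 interferon-inducible GTPase genes 17.6% were called, beside 12.2% of all genes. Gbp5 rose by 1.05 ± 0.15 and Irgm1 by 1.00 ± 0.14, while Gbp8 fell by 1.48 ± 0.32. MHC class II went the other way in sign, with 9 of 10 genes negative and a median of -0.64, but only H2-Ob passed (-1.35 ± 0.23, adjusted p = 0.0285). That is 10% called, below the 12.2% of all genes. None of these genes was called without Ezh1-present tamoxifen replicate 1.

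Immediate early genes, which respond within minutes to signals and to handling of cells, rose in part. Of 21 tested, 7 rose (33.3%, beside 6.77% of all genes) and 1 fell (beside 5.44%). Fos lay at -0.57 and -0.83 against 1.71 and 1.93 (2.53 ± 0.14, adjusted p = 0.0032) and Fosb at -1.11 and -1.29 against 1.84 and 1.34 (2.79 ± 0.25, adjusted p = 0.00814). Both encode subunits of the AP-1 transcription factor, and their groups lay far apart. Fosl2 rose by 0.92 ± 0.10 (adjusted p = 0.0122). Chosen after their values were seen, Jun rose by 1.35 ± 0.16, Klf4 by 1.83 ± 0.20 and Dusp1 by 1.01 ± 0.17, and Atf3 fell by 2.07 ± 0.35. The differences in oil were 1.55 for Fos, 1.10 for Fosb, 1.41 for Jun and -2.18 for Atf3. Time from death to lysis is not given in the labels, and its part was not tested. Fos and Fosb stayed called without any 1 library, and with Ezh1-null tamoxifen replicate 1 left out only these 2 of the 7 higher genes did.

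Genes of the granulocyte line were higher in Ezh1-null cells. The largest rises of all lay in the stefin A cluster, a tandem array of genes for cysteine protease inhibitors of myeloid cells on chromosome 16 (36156811 to 36455392). The table holds 13 rows in this stretch, of which 9 were tested and all 9 rose (beside 6.77% of all genes), by log2 differences of 4.77 to 7.96. BC100530 lay at -4.17 and -3.21 against 5.14 and 3.21 (7.87 ± 0.69, adjusted p = 0.00805), and Stfa2 at -3.88 and -2.55 against 4.93 and 2.97 (7.16 ± 0.85, adjusted p = 0.0148). BC117090 was at the floor in all 4 Ezh1-present libraries, so the filter kept it only through the Ezh1-null libraries and its call adds no support. It was at least 34.3-fold higher in the Ezh1-null tamoxifen libraries, against 3 read pairs per library. These genes are near copies, so the share of each is uncertain and the 9 rows are not independent. The groups did not overlap in any of them, nor in any other called gene (beside 30.7% of all genes with the Ezh1-null libraries above). Their differences in oil ran from 4.26 to 8.77.

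Of 14 genes tested on the primary granule list 7 rose (beside 6.77% of all genes) and 1 fell. Mpo, myeloperoxidase, lay at -0.57 and -0.84 against 0.57 and 0.73 (1.36 ± 0.17, adjusted p = 0.0163), and the protease gene Ctsg at -0.30 and -0.53 against 0.38 and 0.51 (0.86 ± 0.14, adjusted p = 0.0279). Elane and Prtn3, chosen after their values were seen, encode further granule proteases and rose by 2.40 ± 0.42 and 0.96 ± 0.20. Not every gene on this list encodes a granule protein. Igfbp4, for example, stands there as a gene of the same progenitors, and it rose by 1.05 ± 0.12. Ctsc, the protease that activates the granule enzymes, fell by 0.75 ± 0.15. Of 24 late granule and S100 genes 6 rose (beside 6.77% of all genes), of which 5 belong to the stefin A cluster and the sixth was the neutrophil surface gene Cd177 (2.35 ± 0.49, adjusted p = 0.0418). Of the other 18, 17 were positive without passing. In oil 12 primary granule and 16 late granule genes rose (beside 12.5% of all genes). The median differences in oil were 1.92 and 3.22, beside 0.91 and 2.11 after tamoxifen.

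A list of 12 transcription factor genes held the C/EBP genes, Ddit3, Spi1, Gfi1, Irf8, Irf4 and Klf5, not all particular to granulocytes. Of these 12, 5 rose (41.7%, beside 6.77% of all genes) and none fell. Of the other 7, 4 had a negative difference, down to -0.995. In oil 5 of the 12 rose (beside 12.5% of all genes), with a median difference of 0.58, beside 0.28 after tamoxifen. After tamoxifen Cebpe, needed for late granules, lay at -2.17 and -0.98 against 1.49 and 0.98 (2.81 ± 0.57, adjusted p = 0.0401), and Klf5 at -1.68 and -0.68 against 1.65 and 0.90 (2.46 ± 0.48, adjusted p = 0.0374). Cebpd, an inducible member of the C/EBP family, rose by 1.08 ± 0.20 (adjusted p = 0.0327). Cebpa, which starts the granulocyte programme, rose by 0.68 ± 0.14 and Gfi1, a repressor that neutrophils need, by 0.78 ± 0.16. Leaving out any 1 of the 8 libraries ended all 5 calls. No primary granule gene and 1 late granule gene (BC100530) was called without Ezh1-present tamoxifen replicate 1. Among growth factor receptor genes, Kit, the sorted antigen, rose by 0.79 ± 0.17 and Csf2ra, the GM-CSF receptor chain, by 0.91 ± 0.13. Flt3, a receptor of early progenitors, fell by 2.22 ± 0.50 (adjusted p = 0.0493). None of the 3 was called without Ezh1-present tamoxifen replicate 1.

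Macrophage and monocyte genes moved apart. Of 32 tested, 6 rose and 11 fell (beside 6.77% and 5.44% of all genes). The genes that fell encode proteins of tissue macrophages. Mrc1, the mannose receptor, lay at 1.58 and 1.82 against -0.30 and -0.34 (-2.02 ± 0.17, adjusted p = 0.00791), and the 2 groups lay far apart. Chosen after their values were seen, the complement genes C1qa, C1qb and C1qc fell by 2.66, 2.60 and 2.66, Apoe by 2.75 and Maf by 2.49. The genes that rose include monocyte genes. Ly6c2, a surface antigen of young monocytes, lay at -0.64 and -0.62 against 1.38 and 1.27 (1.96 ± 0.11, adjusted p = 0.00334). The chemokine receptor genes Ccr2 and Cx3cr1, also chosen after their values were seen, rose by 1.03 ± 0.11 and 2.04 ± 0.29. The same genes differed in the same direction in oil, at -0.94 for Mrc1, -1.25 for C1qa and 2.13 for Ly6c2. Without Ezh1-present tamoxifen replicate 1 the counts were 2 higher and 3 lower, and without Ezh1-null tamoxifen replicate 2 they were 1 and 4.

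Several genes of early B cells were far higher in the Ezh1-null libraries. Of 23 B cell genes 8 rose and 2 fell (beside 6.77% and 5.44% of all genes). Vpreb1 and Igll1, which form the surrogate light chain of the pre-B cell receptor, lay at -2.99 and -2.55 against 3.37 and 2.55 (5.73 ± 0.42, adjusted p = 0.00656) and at -3.10 and -2.91 against 3.30 and 1.73 (5.53 ± 0.68, adjusted p = 0.0155). Rag1, a subunit of the recombinase of antigen receptor genes, rose by 4.91 ± 0.67 (adjusted p = 0.0189). Pax5, a transcription factor of B lineage commitment, lay at -2.25 and at the floor (-2.83) in the Ezh1-present libraries and at 3.59 and 2.25 in the Ezh1-null libraries (5.47 ± 0.81, adjusted p = 0.0217). Ebf1, which acts before it and was also chosen after its values were seen, rose by 4.16 ± 0.60. Cr2 and Cd22, genes of mature B cells chosen after their values were seen, fell. Cr2 went from 0.92 and 1.14 to the floor (-1.65) in both Ezh1-null libraries, and Cd22 fell by 2.12 ± 0.43. In oil the differences were 6.82 for Vpreb1, 7.04 for Pax5 and 10.4 for Rag1, but 1.61 for Cr2. Without Ezh1-present tamoxifen replicate 1 or Ezh1-null tamoxifen replicate 1, Vpreb1 was the single B cell gene called.

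Markers of other cells that marrow can hold set Ezh1-present tamoxifen replicate 2 apart on the erythroid, T and NK cell, megakaryocyte and stromal lists. On these lists other than the erythroid, both Ezh1-present libraries lay above both Ezh1-null libraries. On the mast cell, basophil and eosinophil list both Ezh1-null libraries lay above. The median of 26 erythroid genes was -0.22 and 2.46 in the Ezh1-present libraries and 0.22 and -0.04 in the Ezh1-null libraries. None of the 26 passed. For 34 T and NK cell genes the medians were 0.63 and 2.04 against 0.30 and 0.21. Of these, 2 fell and none rose (5.88% called, below the 12.2% of all genes). There Pdcd1, the PD-1 checkpoint receptor gene, was at the floor in all 4 Ezh1-null libraries and at 2.85 and 2.87 in the Ezh1-present libraries (at least 4.19-fold lower without Ezh1, with no spread at the floor to test against), and Cd4 fell by 2.98 ± 0.33. For 24 megakaryocyte genes the medians were 0.46 and 1.46 against 0.20 and -0.02. Of these, 1 rose and 4 fell (20.8% called, beside 12.2% of all genes). Ppbp, a platelet chemokine, lay at 2.88 and 5.44 against -1.51 and -1.48 (-5.65 ± 0.86, adjusted p = 0.0228), and Treml1 of platelet granules fell by 4.98 ± 0.94, while the transcription factor Nfe2 rose by 0.80 ± 0.11.

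The 33 stromal and endothelial genes had medians of 0.88 and 1.70 against -0.15 and -0.15, and a median difference of -1.65. Of these 31 were negative and 4 fell (15.2% called with 1 that rose, beside 12.2% of all genes), among them Mgp, a matrix protein gene (-3.49 ± 0.38, adjusted p = 0.0125), and Cdh5, the cadherin of vessel walls (-2.07 ± 0.26, adjusted p = 0.0161). Fn1, fibronectin, rose by 1.88 ± 0.16 (adjusted p = 0.00793). Genes at the floor in both libraries of 1 tamoxifen group alone numbered 1 on the T and NK cell list and 2 on the stromal list. The erythroid and megakaryocyte lists held 0 such genes. The mast cell, basophil and eosinophil list gave medians of -0.71 and 0.79 against 0.81 and 1.74. Of its 21 tested genes 2 rose and 1 fell (14.3% called, near the 12.2% of all genes). These were the basophil proteases Mcpt8 and Prss34, up by 1.39 ± 0.17 and 3.95 ± 0.72, and the eotaxin receptor Ccr3, down by 2.56 ± 0.31. How far such cells carry the differences of other gene groups was not tested. No call remained without Ezh1-null tamoxifen replicate 1 on the megakaryocyte, stromal or basophil lists.

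**Figure D3:**
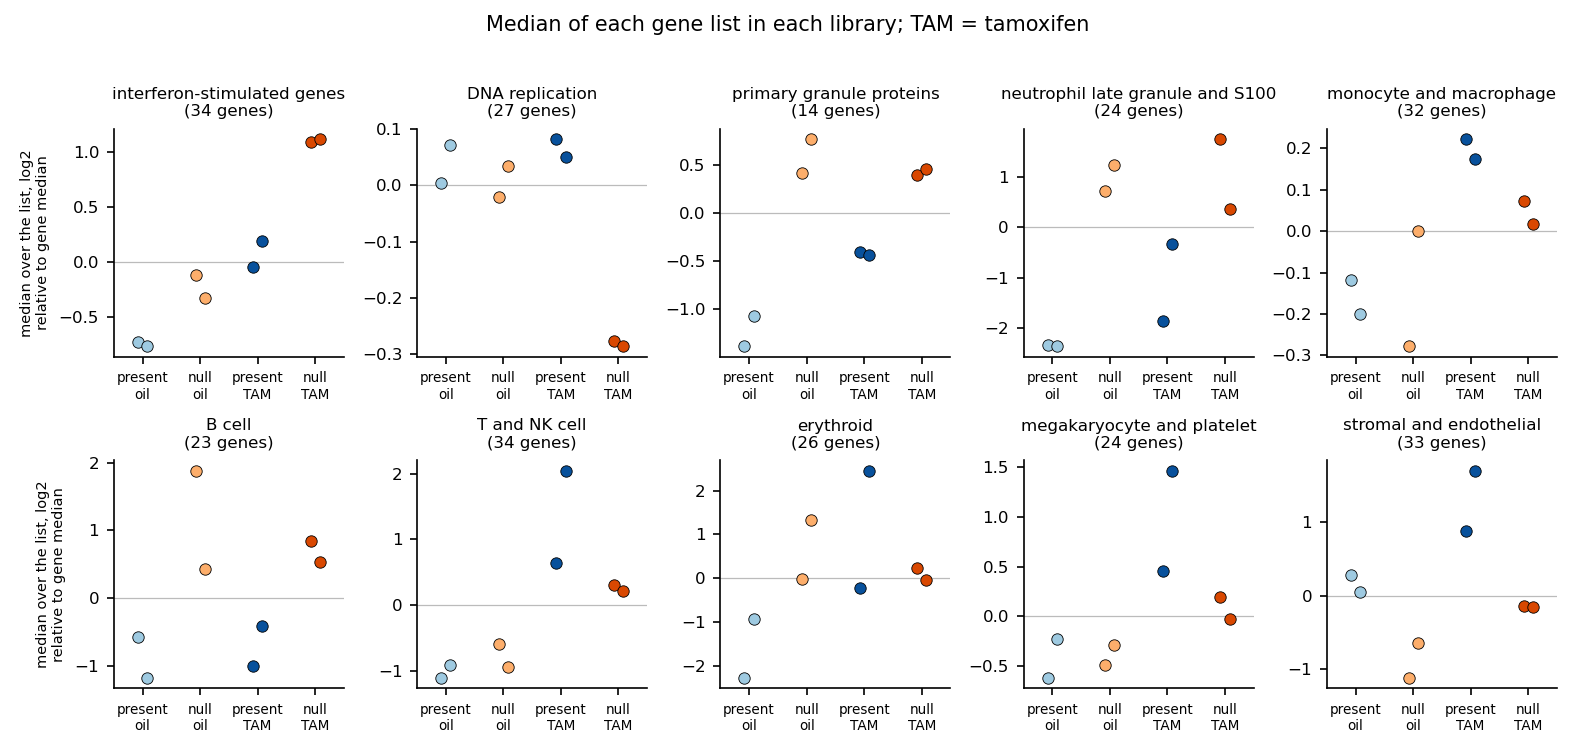
Median of 10 gene lists in each of the 8 libraries, on the log2 scale relative to each gene's median. Interferon-stimulated and DNA replication genes set the 2 Ezh1-null tamoxifen libraries apart, and Ezh1-present tamoxifen replicate 2 is the highest library on the erythroid, T and NK cell, megakaryocyte and stromal lists.

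Transcription factor genes of the embryo showed both directions. Of 80 non-Hox genes listed, 54 were tested, 6 rose and 4 fell (18.5% called, beside 12.2% of all genes). In 13 of the 54, Otx2 and Lhx1 among them, 1 tamoxifen group alone lay wholly at the floor, beside 967 of all 18051 genes. The share called is therefore not read as a result about this list. Otx2, a homeobox gene of the forebrain (gene 18424, chromosome 14, 48658184 to 48667506), was at the floor in 6 libraries and at 3.55 and 4.12 in the Ezh1-null tamoxifen libraries. It was at least 2.74-fold higher there than in the Ezh1-present tamoxifen libraries. Because it passed the filter only through these 2 libraries, its p-values are not used. Pitx1, a homeobox gene of the hind limb, lay at the floor (-0.51) and at 0.51 against 6.33 and 6.54 (6.43 ± 1.21, adjusted p = 0.0342). Lhx1 and Lhx2, homeobox genes chosen after their values were seen, rose. Lhx1 was at the floor in both Ezh1-present libraries and at least 2.07-fold higher without Ezh1, and Lhx2 rose by 2.29 ± 0.39. Pax8 rose by 2.00 ± 0.21 and Pax2 fell by 1.78 ± 0.19 (adjusted p = 0.0122 for both). In oil Pax8 lay at -1.52 and -1.29 against 1.35 and 1.84, and the difference of Pax2 was -2.40. Dmrt1, a sex determination gene of the testis (gene 50796, chromosome 19, 25505706 to 25604328), lay at 0.42 and -0.15 against 5.22 and 5.87, a 42.5-fold difference (5.41 ± 0.55, adjusted p = 0.0113). In the oil libraries Dmrt1 lay between -1.16 and 0.15. With either Ezh1-null tamoxifen library left out, Otx2 had too few libraries above the floor to be tested. In those fits Pitx1, Lhx1, Lhx2, Pax8, Pax2 and Dmrt1 were not called, with adjusted p for Dmrt1 of 0.0531 and 0.0580.

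The Hox genes, which sustain many acute leukaemias, differed little by count. Of the Hoxa, Meis and Pbx list 6.25% and of the other Hox list 5.56% were called, below the 12.2% of all genes. Of 16 genes of the Hoxa cluster with Meis and Pbx, Meis1 fell, from 0.46 and 0.37 to -1.10 and -1.01 (-1.47 ± 0.11, adjusted p = 0.00656), with -1.36 in oil, and no other passed. Of 18 tested Hoxb, Hoxc and Hoxd genes only Hoxb5 passed, lower by 2.16 ± 0.42 (adjusted p = 0.0361). Of 22 regulators of stem cells, Sox4 and Ikzf1 fell with Meis1 (-0.89 ± 0.13 and -0.40 ± 0.08), and none rose. That is 13.6% called, near the 12.2% of all genes. In the fetal programme list Lin28a, an RNA-binding protein gene of stem cells, rose by 1.07 ± 0.14 (adjusted p = 0.0179) and Igf2bp2 by 1.19 ± 0.25 (adjusted p = 0.0423). H19, an imprinted noncoding RNA, lay at 2.80 and 1.47 against -1.47 and -2.98 (-4.36 ± 0.78, adjusted p = 0.0314). Lin28b, high in all 4 tamoxifen libraries at 2.67 and 1.86 against 3.45 and 2.49, did not differ past the threshold (0.70 ± 0.59, adjusted p = 0.46). Igf2bp1 (-0.55 ± 0.51), Igf2bp3 (-0.46 ± 0.11), Hmga2 (0.28 ± 0.76), Igf2 (-0.93 ± 0.33), Arid3a (-0.21 ± 0.14) and Dlk1 (3.63 ± 1.58) did not pass. Leaving out Ezh1-present tamoxifen replicate 1 or either Ezh1-null tamoxifen library ended all fetal programme calls, and Meis1 stayed called without any 1 library.

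By size alone, the 10 largest rises outside predicted genes and genes with a group at the floor included Stfa2, Stfa2l1, Stfa3, Stfa1, Pitx1, Vpreb1, Igll1, Pax5 and Dmrt1. The 10 largest falls, from -5.65 to -4.36, included Ppbp, Cyp1b1, Treml1, Atp6v0d2, Actg2, Ccdc36, Tnfsf18, Lox and H19. Among these, Cyp1b1 encodes a steroid-metabolising enzyme (-4.99 ± 0.57), Atp6v0d2 a proton pump subunit of macrophages and osteoclasts (-4.87 ± 0.42) and Tnfsf18 a ligand of the TNF family (-4.68 ± 0.43). In both Ezh1-present tamoxifen libraries Atp6ap1l, Cldn23 and Fam155a had floor values, and they were at least 10.6-fold, 4.72-fold and 3.58-fold higher in the Ezh1-null libraries. Kng1 and Ldhd, at the floor in both Ezh1-null tamoxifen libraries, were at least 5.04-fold and 4.65-fold lower. Of the 10 rises Vpreb1, and of the 10 falls Atp6v0d2 and Tnfsf18, stayed called without any 1 library.

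**Figure D4:**
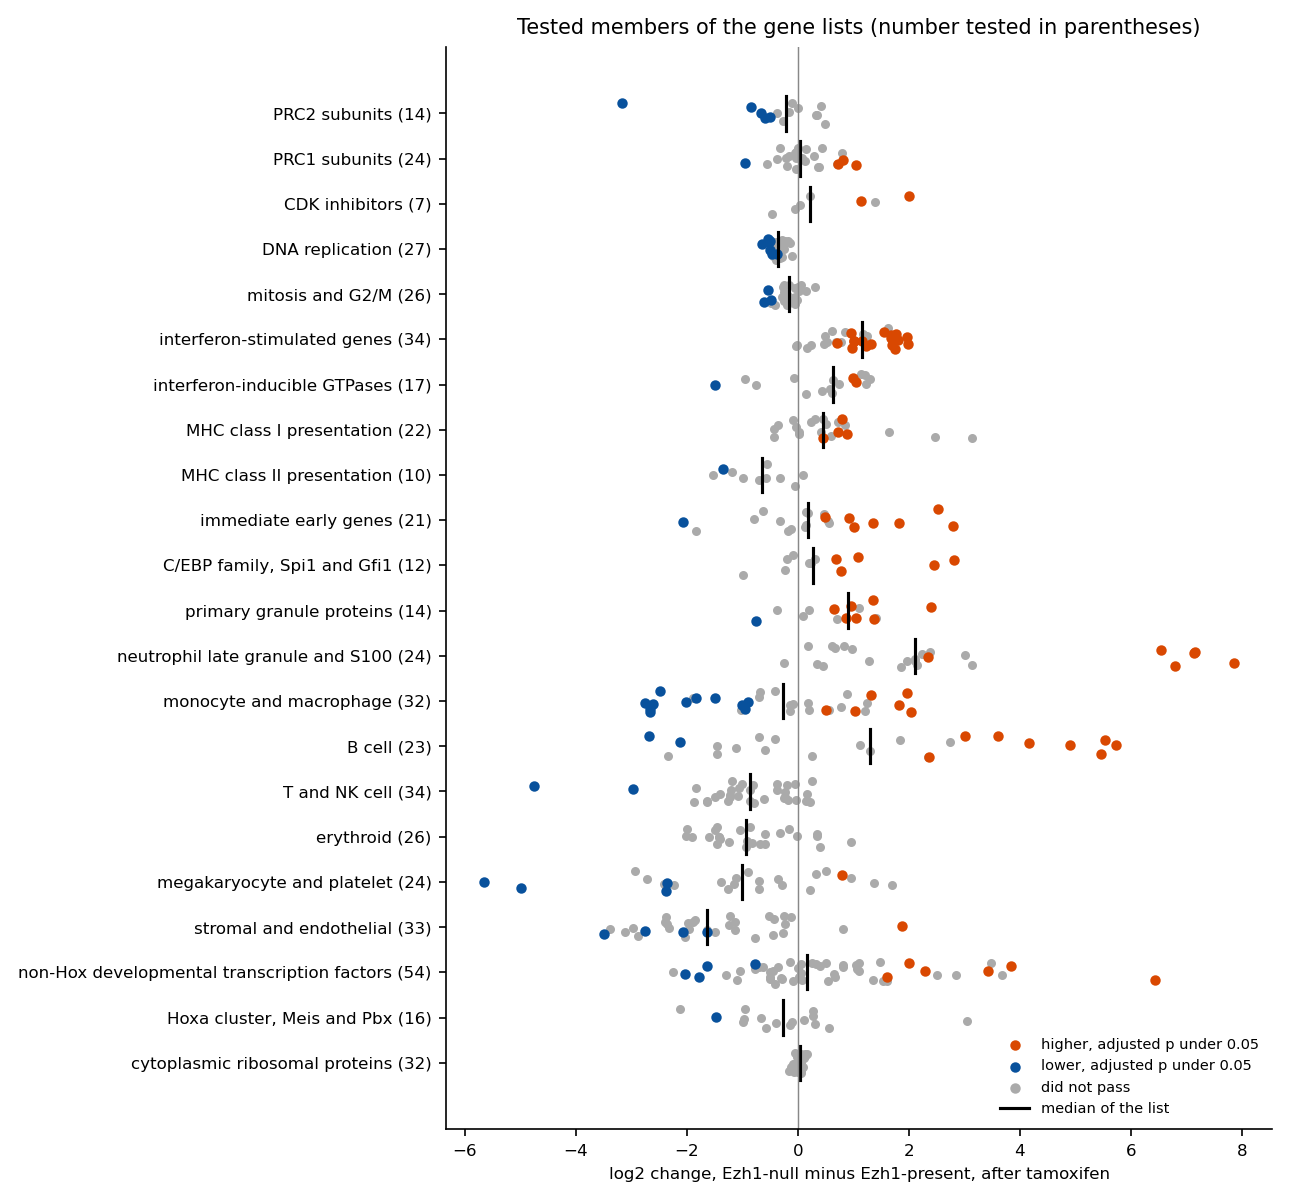
Log2 difference after tamoxifen of every tested member of 22 gene lists, with the list median as a black bar. Of the interferon-stimulated genes 32 of 34 lie right of 0 with 18 called, DNA replication genes lie left of 0, and the 32 cytoplasmic ribosomal protein genes lie within 0.17 of 0 with none called.

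Metabolic, survival and Wnt lists followed. None of 32 cytoplasmic ribosomal protein genes passed, and their differences ran from -0.16 to 0.17. Of 20 glycolysis genes 4 were called (beside 12.2% of all genes). Ldhb, a lactate dehydrogenase subunit, rose by 2.44 ± 0.27 (adjusted p = 0.0134), Gpi1 by 0.96 ± 0.13 and the hexokinase gene Hk3 from -1.38 and -0.55 to 0.73 and 0.55, while Pfkp, a phosphofructokinase gene, fell by 0.88. Of 22 cholesterol synthesis genes Idi1 fell by 0.56 ± 0.12, and of 17 heat shock genes the mitochondrial chaperone Hspa9 fell by 0.91 ± 0.11. On these lists 4.55% and 5.88% were called, below the 12.2% of all genes. Of 25 p53 targets 1 passed (4%, below the 12.2% of all genes), Pmaip1 (Noxa), which fell by 0.84 ± 0.10 (adjusted p = 0.0155). Bcl2l2, a survival gene of the Bcl2 family, rose by 0.54 ± 0.11 (adjusted p = 0.037). Of 12 genes of the Myc network 2 were called (16.7%), the partner genes Mxi1 and Mlx, which rose by 1.58 ± 0.22 and 0.75 ± 0.12. Of 34 Wnt genes 3 were called (8.82%, below the 12.2% of all genes). The receptor genes Fzd2 and Fzd10 fell by 1.37 ± 0.19 and 0.74 ± 0.14, and Sfrp2, a secreted Wnt antagonist, rose by 1.70 ± 0.33. None of these calls held without Ezh1-null tamoxifen replicate 1.

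Ezh1 loss had been measured also with Ezh2 intact, in the oil libraries, which share no library with the comparison above. That comparison called 4493 genes (24.9%), with 2249 (12.5%) up and 2244 (12.4%) down, and 65.8% of all genes did not overlap between its groups. Called in both in the same direction were 1560 genes, 70.8% of the calls after tamoxifen and 34.7% of those in oil, and 37 were called in opposite directions. Both tests used 1 estimate of each gene's spread from all 8 libraries, so the shared calls do not come from separate tests. Of the genes called after tamoxifen 92.8% had the same sign in oil, beside 72.7% of all tested genes. Across the 18051 genes the 2 differences had a Pearson correlation of 0.586 and a Spearman correlation of 0.546, which are descriptions, since genes are not independent replicates and each Ezh1 genotype may be 1 leukaemia. The stefin A genes, Vpreb1, Mpo and Suz12 are examples that differed the same way in both.

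The difference itself was tested as an interaction of Ezh1 loss with treatment. It called 86 genes (0.476%), 58 (0.321%) with a more positive and 28 (0.155%) with a more negative difference after tamoxifen, and 54 of the 86 had a group wholly at the floor. An unadjusted p under 0.05 was found for 2697 genes. Of the genes called after tamoxifen 47 were among the 86. The 5 with the smallest p and no group at the floor differed in oil and little after tamoxifen. Unc13b, a gene for vesicle release, lay at 0.60 and 0.49 against -3.24 and -3.12 in oil and at 0.21 and 0.26 against -0.21 and -0.56 after tamoxifen. Mlxipl, a glucose-responsive transcription factor gene, lay at 0.16 and -0.06 against -3.95 and -4.07 in oil and at 0.70 and 0.38 against 0.06 and -0.18 after tamoxifen. Epcam, an epithelial adhesion gene, had differences of -2.90 in oil and -0.54 after tamoxifen. Wnk2, a kinase gene, had -2.15 and -0.09, and Fat1, a protocadherin gene, -2.31 and -0.03. The interaction called 1 gene when either Ezh1-null tamoxifen library was left out.

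**Figure D5:**
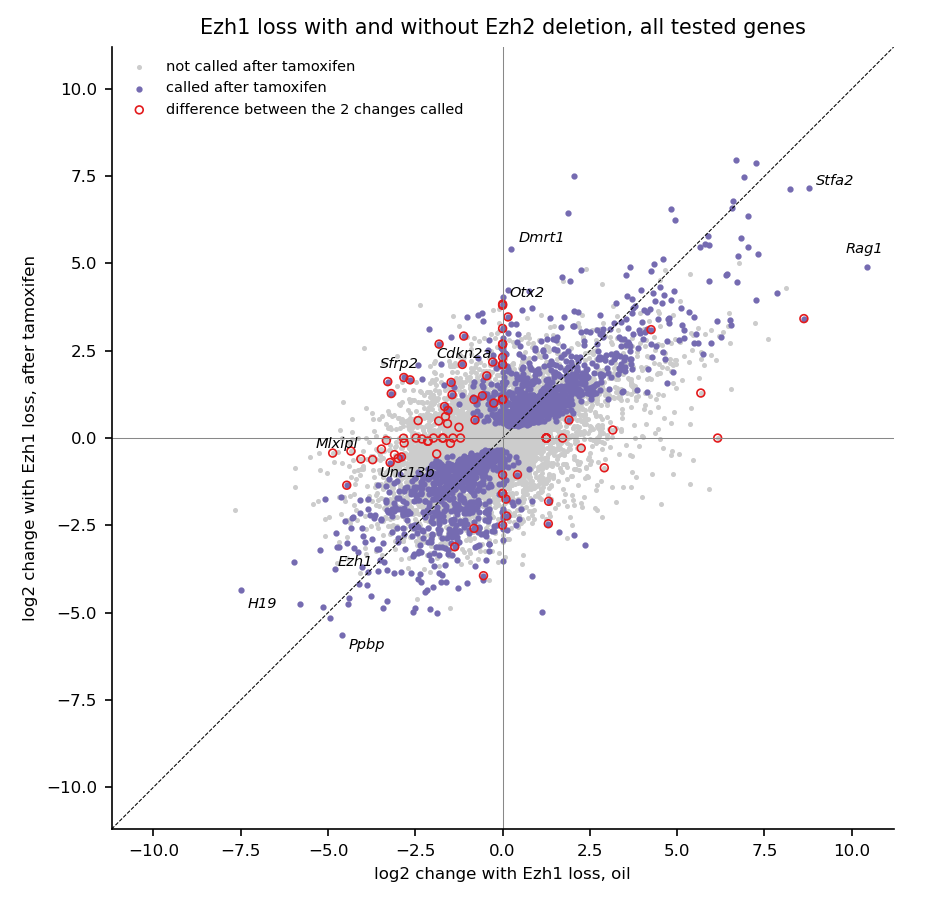
Log2 difference with Ezh1 loss after tamoxifen (vertical) against oil (horizontal) for the 18051 genes tested, with the 2204 genes called after tamoxifen in purple and the 86 interaction calls ringed in red. Of the called genes 92.8% have the same sign on both axes, while Otx2 and Dmrt1 lie near 0 in oil and Unc13b and Mlxipl lie near 0 after tamoxifen.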

How the data were processed

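RNA was sequenced in 8 libraries of c-kit+ leukaemia cells (TruSeq kit, 1 µg of total RNA, per the labels' protocols, and build mm10, per the submitters' processing notes). The 2 deposited tables give, per the file headers, normalized values per library of genes kept by a percentile filter on the raw data. Read as log2 of a normalized read number, they are floored at 1 and centred on the gene's median over 8 libraries. The authors' log2 fold change columns, also deposited, are differences of group means of these values (largest deviation 5.4e-07). The smaller table repeats 4576 rows of the larger one and was not used. The aligner, the counter and the scaling were not stated in the sources used here. Total counts cannot be recovered. The normalized value of 1 read ran from 0.746 (deepest, Ezh1-present tamoxifen replicate 1) to 1.24 (Ezh1-null oil replicate 1), found from 67.2% to 73.7% of low values that lay within 0.01 of a whole number. Of these, 83.5% to 92.8% were even, so the lower limits on folds are set against 3 read pairs (6 reads) per library. They cover counting error only.

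Values were fitted with limma 3.58.1 (R 4.3.3; tables in pandas 2.3.3 under Python 3.11.15, plots in matplotlib 3.10.9), with all 8 libraries, 1 coefficient per group, empirical Bayes without a trend, 4 residual and 1.24 prior degrees of freedom. The fit used 18051 of 31574 rows, those with at least 2 libraries above the row floor (libraries tied at the row minimum within 2e-06), and Benjamini-Hochberg adjustment over all of them. Libraries at the floor cannot vary, so p can be too small for such genes. The 2 against 2 design allows no exact two-sided permutation p under 0.333, so none is given. The script was tested on simulated data with independent normal noise and no floor values. That run checks the code and cannot show how reliable calls near the floor are. Alternatives changed the libraries in the fit, the prior, the scaling, the filter and the block (17 in all).

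The members and the 41 gene lists were chosen with earlier results of these data known. Named by rule were Ezh1 and Ezh2, the 10 largest rises and 10 largest falls, the 3 largest lower limits per direction, up to 3 called genes per list, the PRC2, CDK inhibitor and fetal lists in full and 5 interaction genes (138 genes). Another 51 were chosen after their values were seen. Promoter windows are those of RefSeq for GRCm38.p6, matched by gene ID. Of 3000 minus-strand windows checked, 2439 had their last 45 bases in a GENCODE M21 transcript of the gene, and none matched in the other orientation. The replicate numbers do not pair libraries, since differences between replicates 1 and 2 correlated by -0.062 to 0.079 between groups. The results of some genes named by these rules are not reported here.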

Additional observations from a re-analysis of the deposited data

Results flagged for a closer look

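For 5 genes with values above, the Ezh1-null minus Ezh1-present difference was not the same after tamoxifen as in oil (limma interaction test). A sixth, Otx2, passed on floor values. The interaction, the difference after tamoxifen minus that in oil on the log2 scale, was 2.06 for Wnk2 (adjusted p = 0.0105), 3.10 for Unc13b, 2.36 for Epcam, 3.46 for Mlxipl and 2.29 for Fat1 (adjusted p = 0.0139 for each of these 4). For Otx2 it was 3.83, but this gene was at the floor in 6 libraries and entered the test only through the 2 where it was high, so its p-value supports no difference. The 5 genes were lower in both Ezh1-null oil libraries than in every other library. The cause was not tested.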

How the results depend on the processing

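The number of genes called after tamoxifen was 2204. It fell to 46 with only the 4 tamoxifen libraries in the fit (38 of them among the 2204), to 1179 with a replicate block, and to 258 to 1332 without 1 library. Under the other settings (variance trend, robust prior, quantile or median scaling, 3 filters) it stayed within 1.5 times. The number in oil was 4493, and 1665 to 3959 without 1 library. The 86 interaction calls became 8 with a variance trend, 37 with quantile normalization, 14 with at least 4 libraries above the floor, 6 with only rows with no library at the floor, 5 with a replicate block, and 1 to 75 without 1 library. Fewer residual degrees of freedom or fewer floor rows are part of how several of these settings are built, and beyond that the cause was not tested. The replicate block uses numbers that do not pair the libraries (the tamoxifen groups' correlation was -0.00096), so its lower counts are not a weaker effect. The groups of called genes did not overlap, so leaving out 1 library could not change a sign. Of the other settings only quantile or median scaling could. No gene examined singly with a called difference after tamoxifen changed sign under any setting. Of 155 such genes examined singly, 14 stayed called without any 1 library, and 2 (Ezh1 and Pdcd1) under every setting that gave a value, though Pdcd1 had no spread in the Ezh1-null libraries, all at the floor. With the 4 tamoxifen libraries alone 150 lost the call. Of 41 list medians 33 moved by more than 1 SD between libraries under at least 1 setting. The depth of each library is known only relative to the others, and genes near the floor are resolved least.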

Other observations

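Genes of chromosome 15 lay lower in Ezh1-null cells as a block. Over the 612 tested genes of that chromosome with no library at the floor, the median log2 difference was -0.18 after tamoxifen and -0.34 in oil, beside -0.0013 and -0.03 over all such genes. The chromosome medians were 0.14 and 0.05 in the Ezh1-present tamoxifen libraries and -0.02 and -0.10 in the Ezh1-null tamoxifen libraries, and in oil 0.11 and 0.15 against -0.15 and -0.14. Of 735 chromosome 15 genes tested after tamoxifen 74 were called lower (10.1%, beside 5.44% of all genes) and 39 higher. The median of every other chromosome lay between -0.05 and 0.06 after tamoxifen. Chromosome 15 was singled out after these values were seen, and the cause was not tested. Near the targeted gene, within 5 Mb of Ezh1 on chromosome 11, 17 of 224 other genes were called higher and 22 lower (17.4%, beside 12.2% of all genes).

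Of 20 genes of meiosis and the germ line tested, 2 rose (Dmrt1 and Kit, both given above) and 3 fell (beside 6.77% and 5.44% of all genes). Ddx4, an RNA helicase of germ cells, lay at 0.52 and 0.20 against -1.46 and -1.43 (-1.80 ± 0.30, adjusted p = 0.028). Piwil2, chosen after its values were seen, fell by 1.06 ± 0.22 and Prdm1, which also directs plasma cells, by 2.02 ± 0.32. Of 29 imprinted genes 3 were called (10.3%, below the 12.2% of all genes), among them Ascl2. Ascl2, a transcription factor gene of the placenta, lay at -0.36 and -0.54 against 1.23 and 1.29 (1.71 ± 0.19, adjusted p = 0.0129). Of 28 cadherin genes 4 fell (14.3%, beside 5.44% of all genes) and none rose. In 9 of the 28, 1 tamoxifen group alone lay wholly at the floor, so this share is not read as a result about the list. Cdh13 was at the floor in both Ezh1-null tamoxifen libraries (at least 1.98-fold lower), and Cdh17 fell by 2.81 ± 0.41. No gene of the germ line, imprinted or cadherin lists was called without Ezh1-null tamoxifen replicate 1.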
